A study of Mus musculus with 2 samples.

Results

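Protein kinase C isoforms are serine and threonine kinases, and the 7 genes described here, Prkca, Prkcb, Prkcd, Prkce, Prkch, Prkci and Prkcz, encode members of the conventional, diacylglycerol-only and atypical classes. They were chosen by name, as 7 of the 55536 annotated genes of the tables, and all 7 were found. Total RNA was sequenced from hippocampus, named in the labels as a layer of hippocampus with no statement of which layer, of female B6CASTF1/J mice, a hybrid strain, at 10 days of age. The series holds 1 group of 2 libraries, biological replicates 1 and 2, each from 300 ng of RNA of a pool of 3 females, with differently numbered animals in each pool. No treatment, genotype or age differed between the libraries, so levels are given as a description, as the value in each library and as mean ± SD (n = 2).

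Conventional isoforms are activated by calcium and diacylglycerol, the diacylglycerol-only isoforms (delta, epsilon, eta and theta) by diacylglycerol without calcium, and atypical isoforms by neither, being controlled by protein partners such as Par6 and p62. Diacylglycerol comes from phospholipase C acting downstream of Gq-coupled receptors, and the active kinases phosphorylate membrane and synaptic proteins. In the hippocampus the family is known for roles in synaptic plasticity, and PKM zeta, a form of Prkcz without the regulatory domain, has been studied in the maintenance of long-term potentiation.

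Replicate 1 held 29858328 expected counts and replicate 2 held 32275110, where an expected count is an estimated number of reads that may be a fraction. Levels are in TPM, an estimate of transcript abundance that corrects for transcript length and library depth, so that levels of different genes can be compared. All 12 hippocampal neuron markers of a list, among them Prox1 and Neurod6, were at 1 TPM or more in both libraries. Of the other marker lists, the libraries differed most in myelinating oligodendrocytes, where all 8 genes were 1.5-fold or more higher in replicate 2 (4.22% of 20544 genes were) and the summed level was 115.4 and 322.6 TPM. Neocortex and subiculum markers summed to 243.6 and 158.5 TPM. In a bulk tissue, fewer cells of a type and less RNA per cell cannot be told apart.

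Prkcb was the most abundant of the 7 genes, followed by Prkce, and Prkch was the least abundant. Prkcb stood at 272.0 TPM in replicate 1 and 272.2 TPM in replicate 2 (272.1 ± 0.113, SD, n = 2), above 99.1% of the 22015 nuclear protein-coding genes. Prkch stood at 3.06 and 2.51 TPM (2.785 ± 0.389, SD, n = 2), above 47.3% of those genes. The other 5 genes lay between 15.06 and 154.3 TPM.

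Neighbours in this order were compared within each library by the log2 ratio of TPM after adding 0.1 TPM, and are said to stand apart where the sign was shared by both libraries and their mean was over 2 SD. With 2 libraries no p-value is given, since an exact two-sided sign-flip test cannot go below 0.5. The log2 difference in level was 0.90 ± 0.113 from Prkcb to Prkce, 1.21 ± 0.001 from Prkce to Prkca, 1.18 ± 0.179 from Prkcz to Prkci, 0.54 ± 0.092 from Prkci to Prkcd and 2.48 ± 0.077 from Prkcd to Prkch (SD, n = 2), and these pairs stood apart. Prkca and Prkcz did not, with log2 differences of 0.15 and 0.35.

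The order near the top depended on which transcripts were summed. The gene level adds every annotated transcript, including short fragments and retained introns, and TPM gives a short transcript a high value for few reads. Counting only complete coding transcripts, meaning protein-coding transcripts with no incomplete end in the annotation, Prkcb was at 143.1 and 139.9 TPM and Prkce at 131.9 and 147.7 TPM. The log2 difference from Prkcb to Prkce was then 0.12 in replicate 1 and -0.08 in replicate 2, and the genes no longer stood apart. The Prkcb level left out was mainly that of Prkcb-208 (102.24 and 100.16 TPM) and Prkcb-205 (24.04 and 29.66 TPM). Both hold the last exon of beta I, a coding form described below. How reads in that exon divide between them and beta I is uncertain, and the loss of the Prkcb lead depends on it. The read-based table is a second estimate made from the reads of the same libraries. In it, complete coding transcripts of Prkcb were at 184.3 and 179.8 TPM and those of Prkce at 209.0 and 236.3 TPM. The log2 differences were -0.18 and -0.39, so that Prkce was the higher in both libraries. With a mean of -0.29 ± 0.151 (SD, n = 2) the genes did not stand apart there either. Over complete coding transcripts of the alignment-based table Prkcz lay above Prkca in both libraries, with log2 differences from Prkca to Prkcz of -0.27 and -0.14. In that order the 2 genes stood apart, at -0.21 ± 0.092. They also did over complete coding transcripts of the read-based table, at -0.17 ± 0.007 (SD, n = 2). The other neighbours kept their order.

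**Figure D1:**
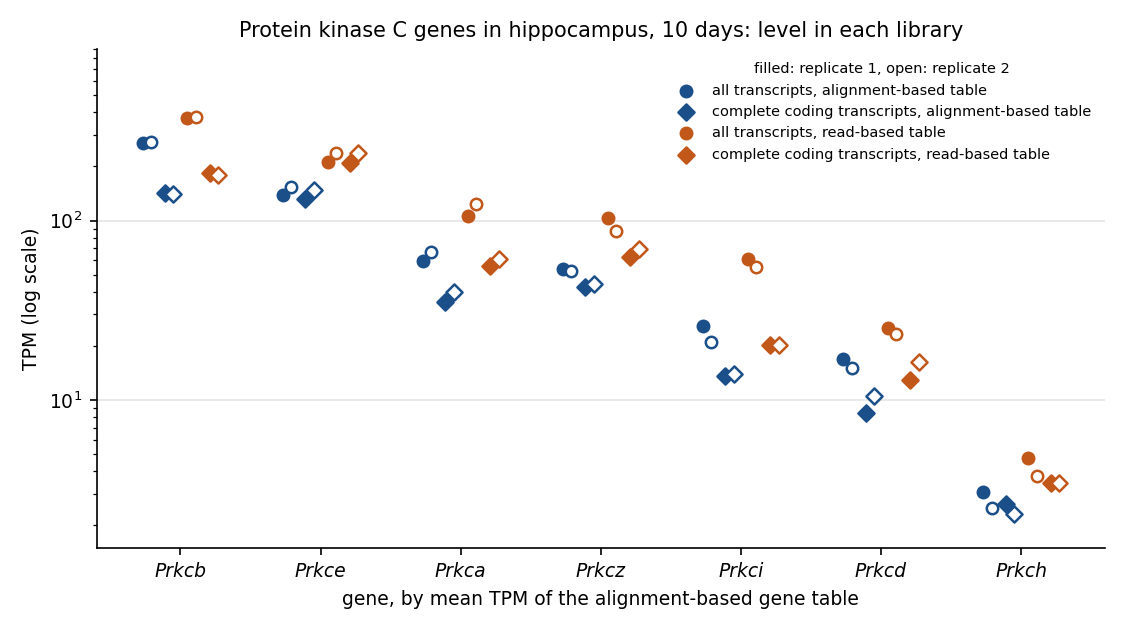
TPM of each gene on a log axis, for all transcripts (circles) and complete coding transcripts (diamonds), in the alignment-based table (blue) and the read-based table (orange); filled symbols are replicate 1 and open symbols replicate 2. Prkcb leads at 272.1 TPM for all transcripts while for complete coding transcripts it lies beside Prkce in the alignment-based table and below it in the read-based table, and Prkch is lowest in every series.

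The 2 conventional genes held 58.2% ± 0.16 (SD, n = 2) of the summed TPM of the 7 genes, the 3 genes of the diacylglycerol-only class 28.6% ± 1.18, and the 2 atypical genes 13.98% and 12.53% in the 2 libraries. Over complete coding transcripts the shares were 46.2% ± 1.48, 39.1% ± 1.63 and 14.7% ± 0.15. Among these 7 genes the 2 conventional ones held the largest share on either basis. Their lead over the 3 diacylglycerol-only genes was smaller for complete coding transcripts, which also depends on how reads of Prkcb were divided among its transcripts. The shares cover only the 7 chosen genes.

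Among the conventional genes, Prkcb (chr7:122288751-122634402, plus strand, mm10) encodes the beta isoforms, which differ in their C-terminal end through a choice of last coding exon. The 2 exon ends are shown because they tell the forms apart, with the stop codon in capitals, as read from the GENCODE M21 transcripts. The beta I end lies at chr7:122633745-122633897 and the beta II end at chr7:122627656-122627814, so the beta II exon comes first along the gene.
beta I: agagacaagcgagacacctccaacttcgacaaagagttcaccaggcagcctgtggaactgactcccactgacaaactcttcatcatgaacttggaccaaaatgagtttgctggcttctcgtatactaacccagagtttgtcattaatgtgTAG
beta II: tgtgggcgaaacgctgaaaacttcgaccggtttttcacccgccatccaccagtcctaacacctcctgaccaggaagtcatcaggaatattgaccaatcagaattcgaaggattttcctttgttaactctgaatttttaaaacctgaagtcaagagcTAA

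Laid side by side without gaps, 46 of 153 bases of these ends were identical, or 30.1%. The complete coding sequence has 671 codons in beta I and 673 in beta II.

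By the deposited estimates, beta II was the main coding form of Prkcb. The beta II transcript Prkcb-202 held 50.75% of the gene's TPM in replicate 1 and 50.32% in replicate 2, by the deposited percent per transcript. The beta I transcript Prkcb-201 held 1.86% and 1.08%. In TPM, beta II stood at 138.0 and 136.9 and beta I at 5.07 and 2.94, a ratio of 27.2 in replicate 1 and 46.6 in replicate 2. The read-based table gave ratios of 28.4 and 46.7. The estimate of beta II was the higher in both libraries and both tables.

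Most of the remaining Prkcb signal was assigned to 2 transcripts that hold the beta I exon and are not annotated as beta I messages. Prkcb-205 has the beta II coding sequence with the beta I exon behind it, is annotated as a target of nonsense-mediated decay (the removal of messages with an early stop), and held 8.84% and 10.9%. Prkcb-208 is a single exon of 955 bases annotated as a retained intron. It contains the 658 bases of the last exon of beta I and 297 bases upstream, and it stood at 102.24 and 100.16 TPM, or 37.59% and 36.8% of the gene.

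By expected counts, which are not corrected for length, Prkcb-208 took 15.32% and 14.82% of the gene and beta II 67.95% and 66.56%. Every base of beta I is shared with some other transcript of the gene. Among the forms shown, only reads across the joint into its last exon are particular to beta I. The rest of its estimate rests on the way shared reads were divided. Reads wholly inside the beta I exon can belong to beta I, to Prkcb-205 or to Prkcb-208. The ratio of beta II to beta I depends on that division.

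Prkca (chr11:107933387-108343928, minus strand), which encodes PKC alpha, stood at 59.52 and 66.65 TPM. Its main message Prkca-201, of 8409 bases and 672 codons, held 58.73% and 59.84% of the gene's TPM. A processed transcript with no coding sequence, Prkca-204, held 36.63% and 36.04%. Prkca-204 is 678 bases long and shares 596 of them with Prkca-201, and its share rests on 260.82 of 6293 expected counts in replicate 1. By counts, Prkca-201 took 95.37% and 95.5% of the gene in the 2 libraries. The second coding transcript, Prkca-202 of 248 codons, held 0.25% and 0.44% of TPM.

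In the diacylglycerol-only class, Prkce (chr17:86167785-86657919, plus strand), which encodes PKC epsilon, stood at 138.0 and 154.3 TPM (146.1 ± 11.5, SD, n = 2). It gave the most expected counts of the 7 genes, 16840 and 20685. Prkce-202 (737 codons) held 95.59% and 95.72% of the gene. In the read-based table Prkce-201, also of 737 codons, was at 39.89 and 40.85 TPM, while the alignment-based table listed it at 0 in both libraries. Prkce-201 has no base that another transcript of the gene lacks, though it has 16 exons and Prkce-202 has 15. Since the tables disagree, the split between these 2 coding transcripts is uncertain.

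Prkcd (chr14:30595354-30626210, minus strand), which encodes PKC delta, stood at 16.92 and 15.06 TPM from 659 and 743 expected counts. Its main coding transcript Prkcd-207 (674 codons) held 45.2% of the gene's TPM in replicate 1 and 61.2% in replicate 2, and complete coding transcripts together held 50.28% and 69.68%. The rest was in retained-intron transcripts. Prkcd-206 held 13.65% and 9.07%, Prkcd-211 held 10.13% and 4.03%, and Prkcd-212 held 10.02% and 6.37%. Prkcd-209 held 7.63% and 5.01%, and Prkcd-210 held 5.02% and 3.46%. Each of these was lower in replicate 2, and the read-based table gave complete coding shares of 51.46% and 69.44%.

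Prkcd is known to be strongly expressed in thalamus, which lies next to the hippocampus. The thalamus and habenula marker list had 8 of 10 genes at 1 TPM or more in both libraries and summed to 133.6 and 111.0 TPM, with none at 0 in both. Of its genes, 4 were 1.5-fold or more higher in replicate 1 (11.2% of 20544 genes were), among them Tcf7l2 at 11.45 and 6.5 TPM and Slc17a6, which is also in the neocortex and subiculum list, at 25.22 and 14.02 TPM. Others of the list differed less, such as Calb2, its most abundant gene, at 50.73 and 50.54 TPM, and Plekhg1 at 12.6 and 12.7 TPM. Over complete coding transcripts Prkcd was at 8.51 and 10.49 TPM. The part of thalamic RNA in the level of Prkcd was not tested.

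Prkch (chr12:73584796-73778185, plus strand), which encodes PKC eta, rested on 213 and 194 expected counts. Prkch-201 (683 codons) held 85.95% and 91.86% of the gene, and the non-coding Prkch-202 held 9.64% and 5.7%. Its complete coding level was 2.63 and 2.31 TPM, the lowest of the 7 genes in both libraries.

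Among the atypical genes, Prkci (chr3:30995747-31052959, plus strand), which encodes PKC iota and acts with Par3 and Par6 in cell polarity, stood at 25.84 and 21.02 TPM. The read-based table put it at 60.89 and 55.02 TPM, and its log2 lead over Prkcd at 1.26 where the alignment-based table gave 0.54. Its only complete coding transcript, Prkci-201 of 595 codons, was at 13.55 and 14.01 TPM. The short transcripts of the gene were lower in replicate 2. The coding fragment Prkci-203, of 614 bases, held 23.24% and 14.97% of TPM, and the non-coding Prkci-202, of 688 bases, held 17.29% and 14.64%. By counts Prkci-201 took 90.3% and 94.27%.

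Prkcz (chr4:155260129-155361361, minus strand), which encodes PKC zeta, stood at 53.69 and 52.12 TPM (52.91 ± 1.11, SD, n = 2). PKM zeta is made from a start site inside the gene. The first 60 coding bases of each form are shown, as spliced and with the start codon in capitals, because they mark where the shared reading frame is entered.
full length, Prkcz-201: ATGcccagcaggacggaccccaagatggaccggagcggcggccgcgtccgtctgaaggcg
PKM zeta, Prkcz-202: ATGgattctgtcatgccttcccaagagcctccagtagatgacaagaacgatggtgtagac

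The PKM zeta start codon is codon 184 of the 592 codons of the full-length coding sequence, and the 409 codons from there on are the same in both forms. The first 60 coding bases of full length lie at chr4:155361163-155361222. Those of PKM zeta lie within chr4:155293183-155294269 and span an intron. The transcripts start 15589 bases apart, at 155361361 for full length and 155345772 for PKM zeta.

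PKM zeta was the main coding form of Prkcz. Prkcz-202 held 77.9% of the gene's TPM in replicate 1 and 85.19% in replicate 2, at 41.82 and 44.41 TPM. Full length, Prkcz-201, held 1.26% and 0% and stood at 0.68 TPM in replicate 1. It was listed at 0 in replicate 2, with a deposited upper bound of 1.73 TPM. The ratio of PKM zeta to full length was 61.5 in replicate 1, and no ratio is given for replicate 2.

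The size of that excess differed between the tables. The read-based table put PKM zeta at 47.22 and 51.36 TPM and full length at 15.11 and 17.62 TPM, ratios of 3.13 and 2.91. Both read-based values of full length lay above the deposited upper bounds of the alignment-based table, 2.04 and 1.73 TPM. PKM zeta was the higher form in both libraries and both tables, while the level of full length could not be fixed from these files. The forms share 2168 bases, and 473 of the 2641 bases of Prkcz-201 are not in Prkcz-202. Of the 4083 bases of Prkcz-202, 1915 are not in Prkcz-201. They are the first exon of PKM zeta, of 323 bases, and the part of its last exon that is annotated as longer, 2403 bases against 811, so most of the bases that set PKM zeta apart lie at the 3' end and come from the annotated length of that exon.

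The remaining transcripts of Prkcz are short. The non-coding Prkcz-209, of 790 bases, held 7.26% and 5.64%. The coding fragment Prkcz-204, of 586 bases, held 4.66% and 3.74%, at 2.5 and 1.95 TPM, but was at 19.47 and 6.637 TPM in the read-based table, above full length in replicate 1 and below it in replicate 2. The short coding transcript Prkcz-203, which starts beside full length, was at 0 in both tables and libraries. The processed pseudogene Prkcz2 (chr7:27882755-27884510) shares 67.4% of its 31-base words with Prkcz-201 and 54.3% with Prkcz-202. It took 48.95 and 38.39 expected counts, beside 35.62 and 0 for Prkcz-201, so the division of reads between full length and the pseudogene is uncertain.

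**Figure D2:**
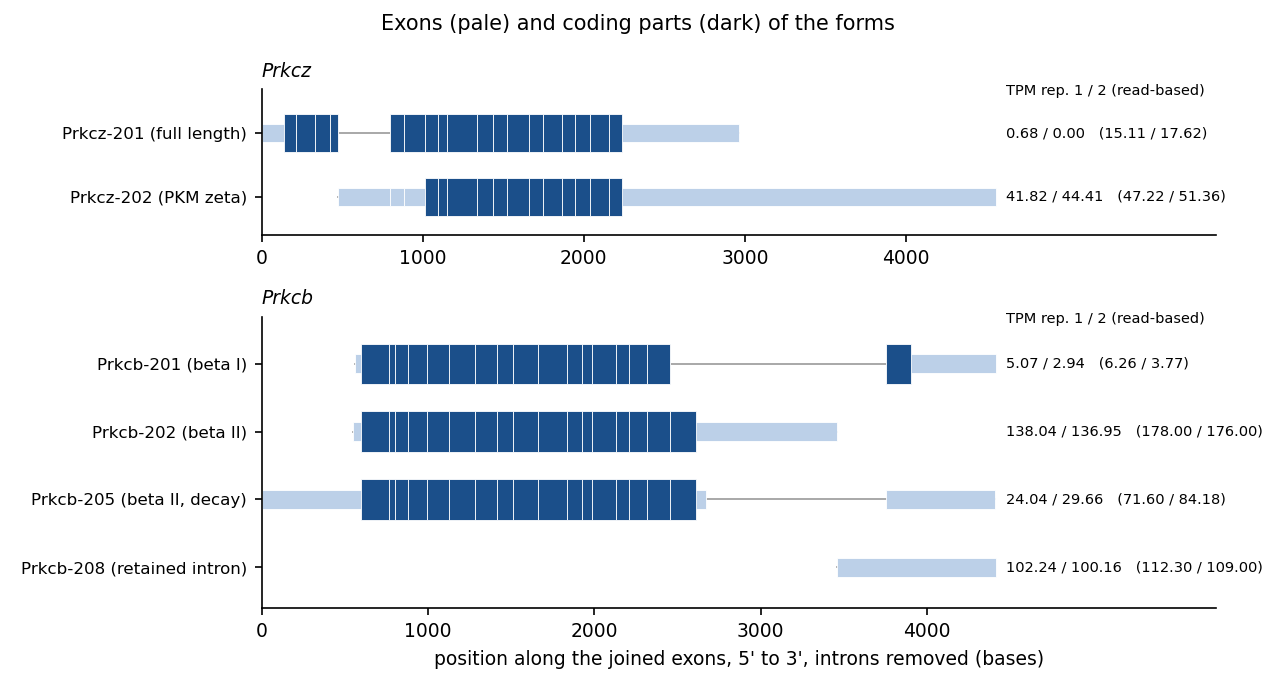
Exons (pale) and coding parts (dark) of the forms of Prkcz and Prkcb along the joined exons in bases, with introns removed; the numbers at the right are TPM in replicate 1 and 2, with the read-based table in brackets. PKM zeta lacks the first exons of full length and stands at 41.82 and 44.41 TPM, and the beta I exon is also in Prkcb-205 and Prkcb-208.

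The stretches just upstream of the 2 Prkcz start sites are shown because the forms begin there. RefSeq (GRCm38.p6) gave promoter windows of 300 bases, 250 before and 50 from the start on, for 5 of the 7 genes, 8 windows in all, and Prkce and Prkch were not matched. The windows were searched on both strands for the cAMP response element TGACGTCA, its part TGACG, the GC box GGGCGG and the E-box CACGTG. Matches of any of these are in capitals. The search first covered the 250 bases before the start and was extended to the whole window after TGACG was seen at its end.
before full length, chr4:155361429-155361678, minus strand, ending at the RefSeq start: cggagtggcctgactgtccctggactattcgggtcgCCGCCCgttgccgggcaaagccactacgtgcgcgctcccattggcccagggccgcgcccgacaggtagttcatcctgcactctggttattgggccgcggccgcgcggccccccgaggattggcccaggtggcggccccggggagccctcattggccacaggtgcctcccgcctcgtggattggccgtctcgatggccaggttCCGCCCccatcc
before PKM zeta, chr4:155345773-155346022, minus strand, ending at the GENCODE start: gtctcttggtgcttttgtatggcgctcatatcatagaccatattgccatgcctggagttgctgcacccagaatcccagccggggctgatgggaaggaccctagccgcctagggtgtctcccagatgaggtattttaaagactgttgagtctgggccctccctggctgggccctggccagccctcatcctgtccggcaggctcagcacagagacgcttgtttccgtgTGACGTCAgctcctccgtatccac

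The window of full length was 71.0% G and C with 31 CpG dinucleotides and held GC boxes that begin 214 and 12 bases before the RefSeq start, and 1 after it. The window of PKM zeta was 59.3% G and C with 13 CpG and held no GC box. It held 1 cAMP response element, which begins 7 bases before the RefSeq start and contains both matches of TGACG. The median of 32851 RefSeq promoters was 52.7% and 7 CpG. The cAMP response element was in 1.79% of those promoters, TGACG in 20.8%, the GC box in 35.7% and the E-box in 7.15%.

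None of the other 7 windows of these genes held the cAMP response element. A further Prkcz window, at another RefSeq start, held TGACG and 2 GC boxes. GC boxes were also in the windows of Prkca (2), Prkcb (1) and Prkci (2). Of the Prkcd windows, the upstream one held 4 GC boxes and an E-box, and the other held none of the motifs. These are matches of letters, with no measurement of binding.

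**Figure D3:**
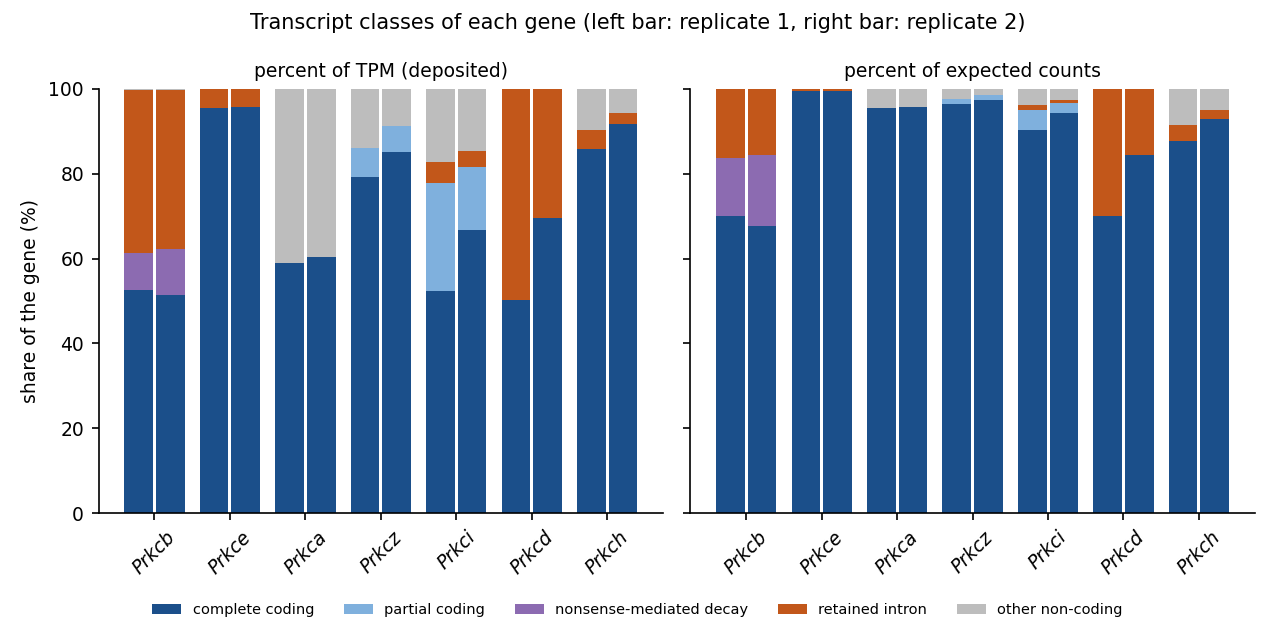
Share of each gene held by annotated transcript classes, left bar replicate 1 and right bar replicate 2 of each pair, as percent of TPM (left panel) and of expected counts (right panel). Short non-coding transcripts of Prkca and retained introns of Prkcb and Prkcd take a larger share of TPM than of counts, and the complete coding share of Prkcd is 50.28% and 69.68% of TPM.

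Replicate 2 differed from replicate 1 in the transcript classes of these genes as in other genes. The complete coding share of TPM was higher in replicate 2 for 6 of 7 members, the exception being Prkcb at 52.61% and 51.4%. It was higher for 63.6% of 10099 nuclear protein-coding genes that had at least 200 counts. Those leave out genes whose TPM in both libraries was all, or in both was none, in complete coding transcripts. The retained-intron share was lower in replicate 2 in the 5 members that have such transcripts. It was lower for 74.6% of 7088 nuclear protein-coding genes with at least 200 counts and retained-intron TPM in either library. The median complete coding share of the 10099 genes was 74.8% and 77.3%, so the direction in the members was that of most of those genes. The part of unspliced RNA in each library was not tested further.

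Between the pools the 7 genes differed little in amount, as did most nuclear protein-coding genes with at least 200 counts. Expected counts were compared as the log2 ratio of replicate 2 over replicate 1 after TMM scaling, with a 95% counting interval that covers counting error only and has no replicate check. None of the 7 genes was 1.5-fold or more apart. Past it were 15.5% of 20544 genes with 10 or more counts, which include genes of low count. Of the 12072 nuclear protein-coding genes that had at least 200, 1.66% were past it. All 7 members had at least 200 counts over both libraries, so the 1.66% is the closer comparison. The ratios were 0.29 for Prkca (0.24 to 0.34), 0.26 for Prkce (0.23 to 0.29), 0.16 for Prkcz (0.09 to 0.22) and 0.12 for Prkcb (0.08 to 0.15), intervals above 0. The intervals of Prkcd (0.14, -0.01 to 0.29), Prkci (0.09, -0.02 to 0.19) and Prkch (-0.17, -0.46 to 0.12) included 0.

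The median ratio of the members was 0.14, beside 0.04 ± 0.234 (median and SD over genes) for the 12072 genes. Scaled by ERCC spike-ins, synthetic RNAs added to the sample, the ratios were lower throughout, at -0.16 for Prkcb, -0.02 for Prkce, 0.01 for Prkca and -0.12 for Prkcz. Prkcd was at -0.14, Prkci at -0.20 and Prkch at -0.45. This scaling shifts all genes by the same amount, so the order of the members' ratios stayed the same. The sign changed for Prkcb, Prkce, Prkcz, Prkci and Prkcd, so the direction of their difference between the pools depends on the scaling.

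**Figure D4:**
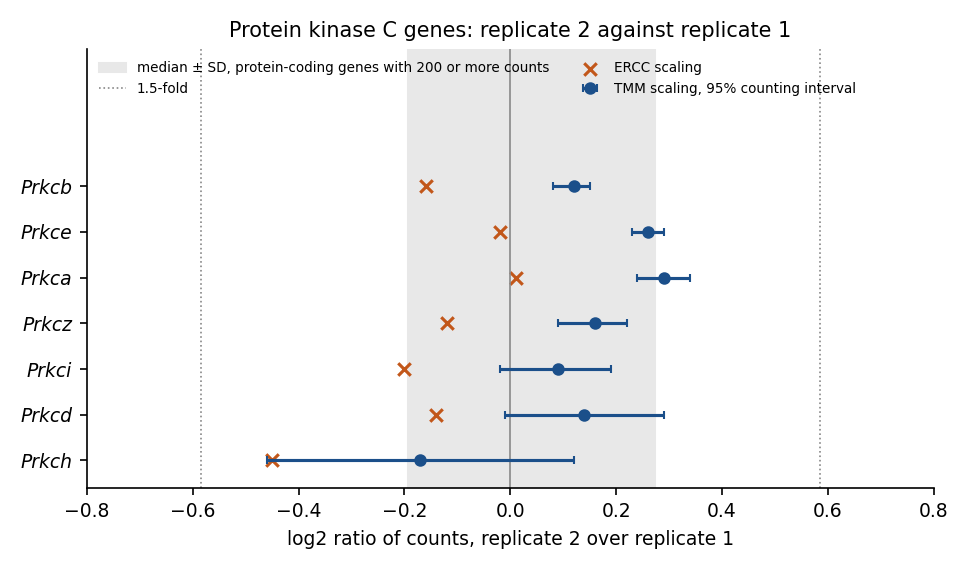
Log2 ratio of counts in replicate 2 over replicate 1 for each gene, with TMM scaling and 95% counting intervals (blue) and with ERCC scaling (orange crosses); the grey band is the median ± SD of those 12072 genes and dotted lines mark 1.5-fold. No gene passes 1.5-fold, and the ERCC values lie left of the TMM values.

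Genes of the wider pathway were taken from 8 lists of 86 different genes. Of these, 83 were at 1 TPM or more in both libraries and 3 differed by 1.5-fold or more between them. The share past 1.5-fold was 15.5% of the 20544 genes given above, which include genes of low count. It was 1.66% of the 12072 nuclear protein-coding genes with at least 200 counts. Most of the 86 genes had at least 200 counts, and for those the 1.66% is the closer comparison. Of the 3 genes past 1.5-fold, only Rasgrp2 was among those, with 954 and 518 counts. Gna14, with 15 and 30 counts, and Ppp1r14a, with 23 and 47, were below 200, so the 1.66% does not cover them. The median log2 ratio of the 86 genes was 0.09. Prkcq, which encodes the diacylglycerol-only PKC theta, stood at 5.06 and 5.44 TPM. The related kinase gene Pkn2 stood at 13.04 and 11.12 TPM.

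Upstream, the Gq protein gene Gnaq stood at 85.75 and 85.2 TPM and Gna11 at 54.36 and 53.03 TPM. Phospholipase C was led by Plcg1, at 59.79 and 48.23 TPM, and Plcb1, at 43.89 and 45.63 TPM. Gna14 was the only 1 of the 17 upstream genes past 1.5-fold, on 15 and 30 counts. Of the IP3 receptors, the calcium channels opened by the other product of phospholipase C, Itpr1 led at 41.53 and 43.62 TPM, with Itpr2 at 11.9 and 11.02 TPM and Itpr3 at 1.03 and 0.77 TPM.

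Diacylglycerol kinases, which remove diacylglycerol, were led by Dgkz at 147.01 and 166.52 TPM. Dgkg, Dgkd and Dgkb stood at 55.55 ± 8.79, 50.82 ± 2.12 and 39.07 ± 8.3 TPM (SD, n = 2). All 10 genes of this list were at 1 TPM or more in both libraries.

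The list of priming kinases, chaperones and phosphatases had all 11 genes at 1 TPM or more in both libraries and was led by the chaperones Hsp90ab1 (725.7 ± 28.2 TPM) and Hsp90aa1 (449.0 ± 20.7 TPM). Cdc37, a co-chaperone for kinases, stood at 58.61 ± 3.03 TPM and Mapkap1, a subunit of mTORC2, at 35.62 ± 0.0212 TPM (SD, n = 2).

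The scaffolds were led by Cdc42, the GTPase that acts with Par6 and atypical isoforms, at 198.1 ± 4.19 TPM. Rack1, the receptor for activated C kinase, stood at 149.4 ± 3.22 TPM, Fez1, a zeta-binding protein, at 149.0 ± 2.45 TPM, and Sqstm1, which encodes p62, at 141.6 ± 13.1 TPM (SD, n = 2). Of 16 listed scaffolds 15 were matched and all 15 were at 1 TPM or more.

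Substrates were the most abundant list, with a median of 163.4 and 181.6 TPM. Nrgn, the neurogranin gene, stood at 671.0 ± 63.7 TPM, the SNARE gene Snap25 at 489.6 ± 19.5, the growth-cone gene Gap43 at 361.5 ± 51.6 and Marcksl1 at 303.9 ± 24.6 (SD, n = 2). Nrgn was higher in replicate 2 (625.99 and 716.06 TPM) and Gap43 in replicate 1 (397.95 and 324.99 TPM), neither past 1.5-fold. Ppp1r14a was past it, on 23 and 47 counts.

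Other proteins bind diacylglycerol as well. Chn1, a Rac GTPase-activating protein, stood at 349.2 ± 62.3 TPM, the Ras activator Rasgrp1 at 122.1 ± 6.83 and the vesicle-priming gene Unc13a at 106.6 ± 0.587 (SD, n = 2). Rasgrp2 was the gene of this list past 1.5-fold, at 43.73 and 25.38 TPM and a log2 ratio of -0.91.

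**Figure D5:**
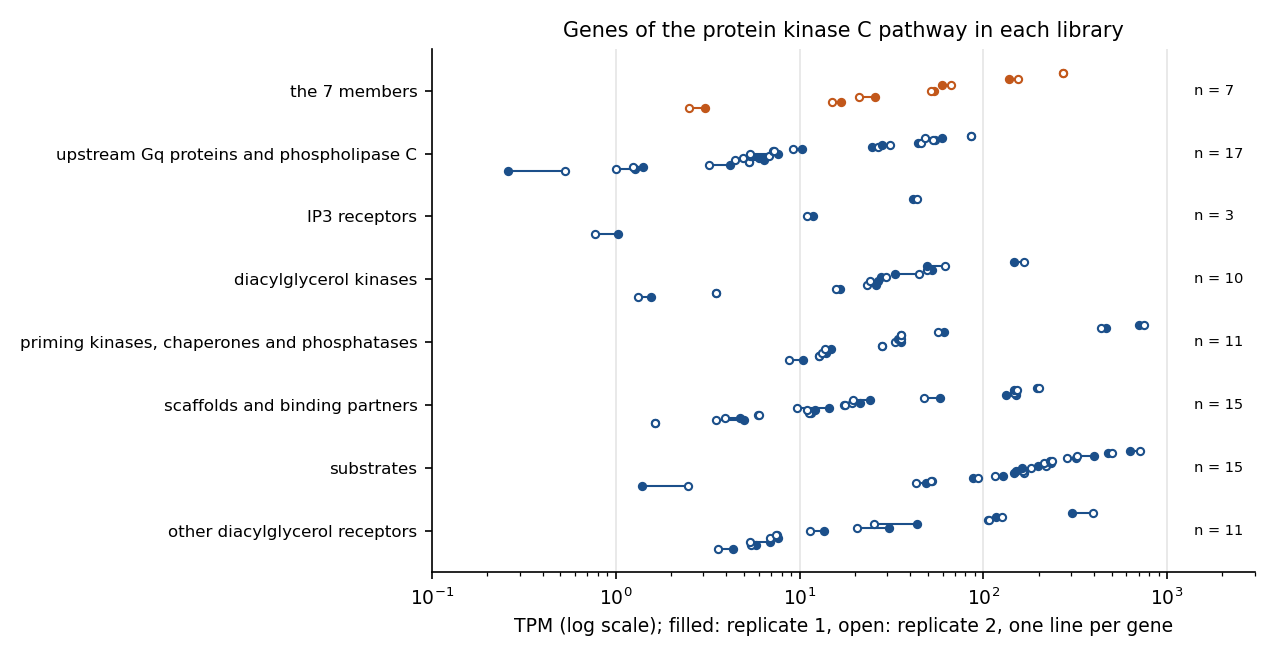
TPM on a log axis of the 7 protein kinase C genes (orange) and of the genes of 7 pathway lists (blue), 1 line per gene from replicate 1 (filled) to replicate 2 (open). The members span 2.785 to 272.1 TPM, and substrates lie to the right of most other lists.

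Genes annotated on the strand opposite to the members and overlapping them were at 0 counts in both libraries, except Apoh beside Prkca at 1 and 2 counts. Genes inside Prkcb and Prkce on the same strand held up to 224 counts, against 11803 or more for the gene around them. Whether reads were counted by strand was not given in these sources.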

How the data were processed

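Each library had an alignment-based gene table, an alignment-based transcript table and a read-based transcript table. The deposited expected counts, per the file headers, estimate how many reads came from each gene or transcript and are not normalized, as are the deposited estimated counts of the read-based table. The deposited TPM corrects them for length and sums to the same total in each library, over genes and spike-ins alike. The deposited percent of each gene's TPM per transcript gave the form shares, and the deposited signal bounds are intervals of TPM. The build, mm10, and annotation, M21, are those named beside the deposited files, and the programs behind the tables were not given in these sources. Coding status and exons came from GENCODE M21.

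The tables summed to 29858328 and 32275110 expected counts, with 0.341% and 0.393% in ERCC spike-ins and 29756524 and 32148302 in annotated genes. A further 26248 numbered entries were left out, and 86 genes had no read-based entry. Expected counts were rounded for the ratio of replicate 2 over 1, with TMM effective sizes (edgeR 4.0.16), a pseudocount of 0.5 counts and exact (Clopper-Pearson) 95% intervals. DESeq2 1.42.0 size factors, ERCC totals, other filters, the read-based table and each library alone were alternatives. The scripts were in R 4.3.3 and Python 3.11.15 (numpy 2.4.6, scipy 1.17.1, pandas 2.3.3, matplotlib 3.10.9). Of their steps, only the ratio of replicate 2 over 1 and its interval were tested on simulated counts, which held counting error only. Identity of motifs and exons was read from RefSeq and GENCODE sequences.

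Members and lists were chosen with earlier results of these data known. Named were all members, their transcripts at 5% or more of the gene in a library of the alignment-based table, up to 4 genes of each pathway list with the highest mean TPM, and those past 1.5-fold. Other transcripts were chosen after their values were seen. Sdpr was not matched. Some genes that this rule names are not reported here. The replicates are separate pools of animals.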

Additional observations from a re-analysis of the deposited data

How the results depend on the processing

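No paired analysis was possible because there is 1 group. Complete coding transcripts and shares of counts were added after the data were seen. Mean TPM in the read-based table was 375.7 for Prkcb, 225.8 for Prkce, 115.1 for Prkca, 95.26 for Prkcz, 57.95 for Prkci, 24.21 for Prkcd and 4.264 for Prkch. Scaled over protein-coding genes it was 606.8, 326.0, 140.7, 118.0, 52.21, 35.64 and 6.206 in that order, and the order of the genes was the same in both. The posterior mean of Prkcb was 264.4. Over complete coding transcripts the means were 141.5 for Prkcb, 37.64 for Prkca, 43.45 for Prkcz, 13.78 for Prkci and 9.5 for Prkcd. There the log2 difference from Prkcb to Prkce was 0.02 and from Prkca to Prkcz -0.21, by leaving out transcripts that are not complete coding. For Prkcb these were mainly Prkcb-208 and Prkcb-205, whose reads in the beta I exon could also belong to beta I.

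The ratio of replicate 2 over 1 with ERCC totals was -0.16 for Prkcb, -0.02 for Prkce, 0.01 for Prkca, -0.12 for Prkcz, -0.20 for Prkci and -0.14 for Prkcd, and from read-based counts 0.16 for Prkcb, 0.31 for Prkce and 0.34 for Prkca. Genes past 1.5-fold numbered 9683 with no filter, 359 at 200 counts, 4875 with ERCC totals and 1250 past 2-fold, and the read-based table gave 4213. The cause of these shifts was not tested.

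In the read-based table the shares were 52.24% for PKM zeta, 17.38% for full-length Prkcz, 47.11% for beta II, 67.84% for beta II with Prkcb-205, and for complete coding transcripts 50.79% for Prkca, 98.59% for Prkce, 81.68% for Prkch and 35.05% for Prkci. Among protein-coding transcripts they were 91.88% for PKM zeta, 97.18% for beta II, 2.822% for beta I and 74.51% for Prkci. For Prkca, Prkcd, Prkce and Prkch this share was 100% by definition, since all their protein-coding transcripts are complete. The shares by counts were 96.49% for PKM zeta, 67.25% for beta II and 82.33% for beta II with Prkcb-205. For complete coding transcripts they were 95.58% for Prkca, 77.26% for Prkcd, 99.6% for Prkce and 92.28% for Prkci. PKM zeta and beta II led in each of these. Prkch with ERCC totals was at -0.45. Depth limits Prkch most, with 213 and 194 counts.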
